A study of Mus musculus with 4 samples.

Results

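The genes described here are the Nduf and Uqcr genes of the mouse, most of which encode subunits or assembly factors of respiratory complexes I and III. They were chosen by name, although with earlier results of these data known. The rule took protein-coding genes of RefSeq on GRCm38.p6, whose chromosomes have the coordinates of mm10, with a symbol that begins with Nduf or Uqcr. There were 57 such genes among 21774, namely 49 Nduf and 8 Uqcr genes. For each, the peaks of an H1foo list and of an AE4 list were counted that shared at least 1 bp with the gene or with the 2 kb on either side, called the window below.

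Both lists came from ChIP-seq, which sequences the DNA held by a protein that an antibody pulls down. The cells were embryonic stem cells from the mouse strain 129S4/SvJae, and all overexpressed H1foo-GFP, so there was no group without it. H1foo is the linker histone variant of the oocyte, and linker histones bind the nucleosome where DNA enters and leaves it. One group of 2 libraries was made with a rabbit polyclonal antibody to H1foo, and the other group of 2 with AE4, a monoclonal antibody from mouse that is known for binding histone H1. The labels do not say whether AE4 also binds H1foo, nor whether replicate libraries came from separate cultures. The data hold no expression values, so the markers of the cell type could not be examined.

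Complex I takes electrons from NADH, passes them to ubiquinone and pumps protons across the inner mitochondrial membrane. Complex III takes the electrons on from ubiquinol to cytochrome c. Both are built from many small proteins encoded in the nucleus and a few encoded by mitochondrial DNA, and the nuclear genes are transcribed in nearly every tissue. Many of them have CpG-rich promoters with sites for NRF1, for ETS factors such as GABPA, and for YY1. Mouse embryonic stem cells in the naive state respire as well as ferment.

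The authors deposited 1 peak list per antibody, 97825 peaks for H1foo and 47493 for AE4, of which 97795 and 47449 lay on the assembled chromosomes. A list gives a position and a score for each peak. The score is the authors' value from their peak caller, starts at 50 and has no stated scale, and is used here only to rank peaks within a list. Neither list holds a value per library, so the counts below have no replicate error and no test was made. Depth is unknown, and a longer list puts a peak at more genes, so a gene without a peak was not shown to lack the protein.

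H1foo peaks lay at most of the respiratory genes. A peak was present in the window of 43 of the 57 genes or 75.4%, against 59.4% of all protein-coding genes. AE4 peaks lay at 27 of 57 or 47.4%, against 46.1% of all genes. Both antibodies had a peak at 26 members (45.6%, against 42.2% of all genes), H1foo alone at 17 (29.8% against 17.2%), AE4 alone at 1, Ndufa6 (1.75% against 3.88%), and neither at 13 (22.8% against 36.7%).

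Respiratory genes are short. Their median length was 7.64 kb, from 0.471 to 106.0 kb, and that of all genes 17.2 kb, while the number of other protein-coding genes within a window of 1 Mb was similar, with medians of 16 and 15. Other genes in the same one of 10 length classes and 5 gene density classes carried an H1foo peak in 55.4% of cases and an AE4 peak in 37.5%. Members thus stood 20.1 points above like genes for H1foo and 9.92 points above for AE4. With peaks inside the gene only, the H1foo difference was 11 points. It also became smaller with stronger peaks. With only peaks at or above the median score of the list, 28 members had an H1foo peak, where 44.4% of all genes had one, and the difference was 6.96 points. With the H1foo list trimmed to the length of the AE4 list it lay at 27 members, against 43.8% of all genes. AE4 peaks at or above the median of their list lay at 20 members, against 32.5% of all genes.

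The difference also depended on the classes of genes used for comparison. A RefSeq promoter entry was found for 47 of the 57 members and 17492 of all genes. Among genes with an entry, 35 of 47 members or 74.5% had an H1foo peak in the window, against 54.2% of other genes of like length and density, a difference of 20.3 points. With length classes alone the difference was 17.2 points. Against other genes of like length and like promoter CpG count the share was 70.4%, a difference of 4.11 points. With length, density and CpG classes together it was 66.3%, a difference of 8.19 points, and these classes held from 10 genes. For AE4 the corresponding shares were 48.9% for members, 36.4% for genes of like length and density, 47.9% for genes of like length and CpG count and 42.5% with all 3. The classes over promoter entries were chosen after the data were seen.

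**Figure D1:**
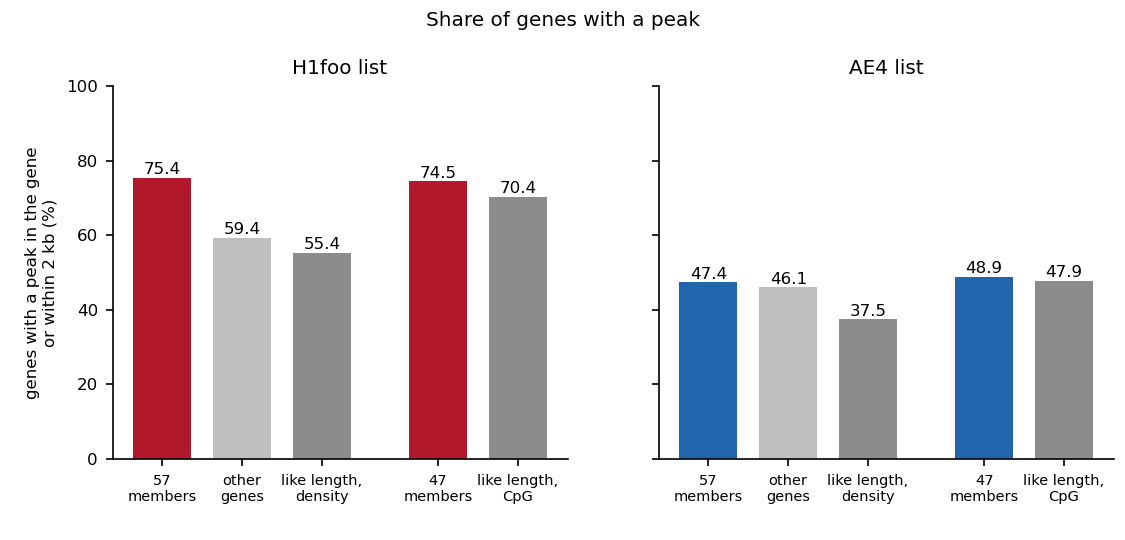
Share of genes (percent, y axis from 0) with a peak in the gene or within 2 kb, for the H1foo list (left) and the AE4 list (right). Bars give members, all other protein-coding genes, other genes of like length and density, and, over the 47 members with a promoter entry, other genes of like length and promoter CpG count; the H1foo bars of 75.4% and 55.4% stand well apart and those of 74.5% and 70.4% do not. There are no error bars because each list is a single set of peaks.

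The number of H1foo peaks was close to that of like genes. Members had 1.96 H1foo peaks in their window on average, against 2.0 in like genes, and H1foo peaks covered 11.4% of the window in both. For AE4 the means were 1.11 and 0.85 peaks, and 4.5% and 3.63% of the window. Of the 43 members with H1foo, 15 had 1 peak, 20 had 2 to 4, and 8 had 5 or more. The highest H1foo score of a member with a peak had a median of 100, against 109 in other genes. In 15 of 43 members (34.9%) every H1foo peak was below the median score of the list, 73.2, against 25.3% of all genes with a peak. For AE4 it was 7 of 27 (25.9%), against 29.4%. Highest scores were not computed for like genes, and other genes held more H1foo peaks to take a highest score from, 3.5 on average. Taken singly, the H1foo peaks in members' windows had a median score of 74.3, close to the 73.2 of the list.

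The shares also varied among the members with length and gene density. H1foo lay at 11 of 17 members up to 5 kb, at 14 of 21 of 5 to 10 kb, at 8 of 9 of 10 to 20 kb and at 10 of 10 longer ones. Other genes of these classes had 33.2%, 60.4%, 66.5% and 69.3%, so the distance between members and other genes was widest in the shortest and the longest class. AE4 lay at 12 of the 15 members with 30 or more neighbours within the 1 Mb window, against 50.7% of other genes there. In the classes of 20 to 29, 10 to 19 and under 10 neighbours it lay at 3 of 8, 7 of 17 and 5 of 17, where other genes had 53.8%, 47.7% and 37.3%. The step in AE4 between the densest class and the rest was not tested, and the classes are small. Some members of the densest class lie close together, so their 1 Mb windows overlap. Ndufs7 and Uqcr11 are 146 kb apart, Ndufs8 and Ndufv1 94.7 kb, and Ndufaf3 and Uqcrc1 369 kb.

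**Figure D2:**
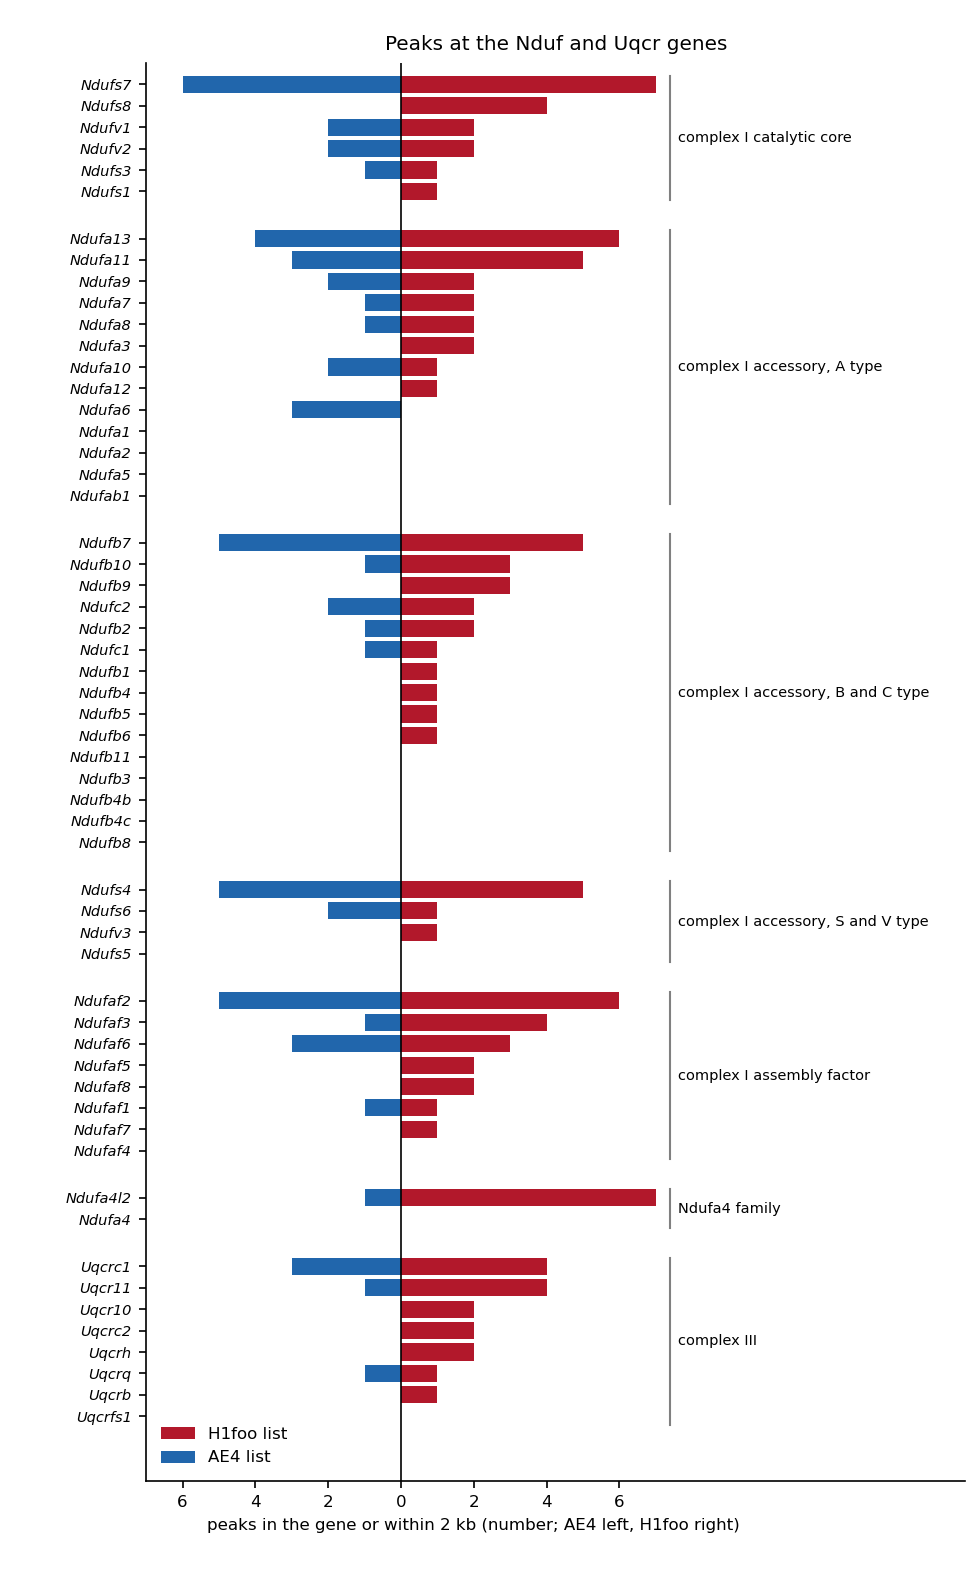
Number of peaks in the gene or within 2 kb (x axis; AE4 to the left of 0, H1foo to the right) for 56 of the 57 members, grouped by role. Ndufs7 and Ndufa4l2 have the most H1foo peaks, 7 each, every catalytic core gene drawn has at least 1, and 13 genes have no bar on either side.

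The catalytic core of complex I, the subunits that carry flavin and iron-sulfur clusters and form the quinone site, had an H1foo peak at all 7 nuclear genes and an AE4 peak at 5. Ndufs7, which helps to form the quinone site, had 7 H1foo peaks with a highest score of 181.14 and 6 AE4 peaks with a highest score of 208.61. Its strongest AE4 peak, chr10:80256851-80258204, began 57 bp beyond the end of the gene and also lay in the window of Gamt. Ndufs8, a subunit with iron-sulfur clusters, had 4 H1foo peaks of up to 130.96 and no AE4 peak closer than 2.89 kb.

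The flavin-binding subunit Ndufv1 had 2 peaks of each antibody, the strongest at 148.72 for H1foo and 91.47 for AE4, which overlapped near the end of the gene. Ndufv2 also had 2 of each, at low scores of up to 62.6 and 71.96, deep in a gene of 22.8 kb. Ndufs3 had 1 H1foo peak (100.24) and 1 AE4 peak (119.58) that overlapped, both more than 1.5 kb outside the gene. Ndufs1, the largest iron-sulfur subunit, had a single H1foo peak of 105.69 that lay inside it and in the window of the neighbouring Eef1b2. The core genes thus all had H1foo in the window, from 1 peak to 7, where 59.4% of all genes had a peak. No share of like genes was computed for this or any other group by role.

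Of 13 accessory subunits of the A type, which surround the core, 8 had H1foo and 7 had AE4. Ndufa11, a membrane subunit, held the strongest peaks of all members in both lists. Its H1foo peak at chr17:56719472-56722345 was 2874 bp wide with a score of 777.1, at the 99.9th percentile of the H1foo list, and overlapped AE4 peaks of 322.69 and 199.6, the first at the 99.6th percentile of its list. These peaks filled the gene from 1710 to 4903 bp past its start, and the first of the AE4 peaks and the H1foo peak also lay in the window of Vmac. Ndufa13, on chromosome 8, had 6 H1foo peaks of up to 277.17 and 4 AE4 peaks of up to 147.05, and the AE4 peaks lay from the middle of the gene to past its end, each under an H1foo peak. Peaks were dense on that chromosome, where 83.3% of genes had H1foo and 74.5% had AE4 in their window.

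The other A type genes had few peaks. The subunits Ndufa9, Ndufa7 and Ndufa8 had 2 H1foo peaks each, with highest scores of 81.49, 101.2 and 62.16, and 2, 1 and 1 AE4 peaks, of up to 100.41, 68.72 and 63.32. Those of Ndufa9 did not overlap between the lists, while Ndufa7 and Ndufa8 each had a pair that did. Ndufa10 had 1 H1foo peak (125.02) past its end, over an AE4 peak of 71.05, and a second AE4 peak inside. Ndufa3 (2 peaks, 108.99) and Ndufa12 (1 peak, 70.85) had H1foo alone. Ndufa6 was the single member with AE4 alone: its 3 AE4 peaks, of 53.46, 80.17 and 52.21, lay past the end of the gene in the window of Smdt1, and the nearest H1foo peak was 2.31 kb away. Ndufa1, Ndufa2, Ndufa5 and Ndufab1, the mitochondrial acyl carrier protein, had none.

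The B and C type subunits of the membrane arm had H1foo at 10 of 15 genes and AE4 at 5. Ndufb7, also on chromosome 8, had 5 peaks of each antibody, of up to 256.79 for H1foo and 111.33 for AE4, and H1foo covered 57.3% of its window. Ndufb10 had 3 H1foo peaks (139.09) and 1 AE4 peak (59.12), and the strongest of them lay past its end in the window of the ribosomal protein gene Rps2. Ndufc2 had 2 of each, with 167.25 and 78.54 at the gene start. Ndufb2 had 2 H1foo peaks (82.19) and 1 AE4 peak (67.36), and Ndufc1 1 of each (68.52 and 62.43), on opposite sides of the gene. Ndufb9 had 3 H1foo peaks, none above 56.09, and Ndufb1, Ndufb4, Ndufb5 and Ndufb6 had 1 each at 51.64, 64.3, 50.88 and 57.97. Ndufb3, Ndufb4b, Ndufb4c, Ndufb8 and Ndufb11 had no peak. Ndufb4b and Ndufb4c, of 0.471 and 0.485 kb, resemble Ndufb4, and the placement of reads among such copies is uncertain.

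Among the S and V type accessory subunits, Ndufs4 had 5 peaks of each antibody along 100300 bp, the highest at 83.6 for H1foo and 67.79 for AE4. Only a single pair of them overlapped. Loss of Ndufs4 in mice is a model of Leigh syndrome. Ndufs6 had 1 H1foo peak of 188.39, at the 94.1st percentile of its list, over an AE4 peak of 53.44, with a further AE4 peak of 54.37. Ndufv3 had H1foo alone (135.11), and Ndufs5 had neither.

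Assembly factors, which help to put complex I together and are not part of it, had H1foo at 7 of 8 genes and AE4 at 4. Ndufaf2 had 6 H1foo and 5 AE4 peaks over 106.0 kb, of up to 123.44 and 117.14, and these 2 overlapped. Ndufaf3, a gene of 1.85 kb, had 4 H1foo peaks that covered 60.9% of its window, the strongest (253.21) 47 bp before its start, and 1 AE4 peak of 55.87. All 4 also lay in the window of Impdh2, and 3 of them in that of Dalrd3. Ndufaf6 had 3 of each (86.58 and 67.74) and Ndufaf1 1 of each (51.48 and 53.76), all outside the gene in the case of Ndufaf1. Ndufaf8, Ndufaf5 and Ndufaf7 had H1foo alone, at up to 111.88, 56.6 and 50.85. Ndufaf4, the partner of Ndufaf3 in assembly, had no H1foo peak within 273 kb and no AE4 peak within 254 kb.

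The Ndufa4 family split. Ndufa4, whose product is counted with cytochrome c oxidase, had no peak in its window, and the nearest H1foo peak was 9.06 kb away. Its paralog Ndufa4l2, a gene known to be induced by hypoxia, had 7 H1foo peaks of up to 224.6, which covered 61.4% of its window, the highest share of all members. The AE4 list had 1 weak peak there (52.58), under an outermost H1foo peak.

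Complex III genes had H1foo at 7 of 8 and AE4 at 3. Uqcr11, a small subunit, had 4 H1foo peaks of up to 151.57 and 1 AE4 peak of 258.67, at the 99.3rd percentile of the AE4 list, which overlapped 2 of them. Uqcrc1, a core protein of the matrix side, had 4 H1foo peaks (88.21) and 3 AE4 peaks (78.47). Uqcrq, of the ubiquinone-binding part, had 1 H1foo peak (54.45) over 1 AE4 peak (91.25), both outside the gene. Uqcrh (141.58), Uqcr10 (73.35) and Uqcrc2 (71.73) had 2 H1foo peaks each and Uqcrb (66.89) had 1, without AE4. Uqcrfs1, which carries the Rieske iron-sulfur cluster, had neither.

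The 13 members without a peak were short, with a median of 5.48 kb and a maximum of 15 kb. The longest were Ndufab1, Ndufb3, Ndufa5, Ndufa4 and Ndufaf4, of 15, 9.57, 9.03, 7.08 and 6.92 kb. Their nearest H1foo peak lay at 25.1, 16.7, 429, 9.06 and 273 kb, and over all 13 it lay between 2.94 and 1400 kb. The farthest was that of Ndufa1 on chromosome X, and Ndufb11, the other X-linked member, had its nearest at 180 kb. Of all genes on X, 6.23% had an H1foo peak in the window and 3.95% an AE4 peak.

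Part of the peaks lay at a neighbouring gene as well. Of the 112 H1foo peaks in members' windows, 51 or 45.5% lay in the window of another protein-coding gene as well, and of 63 AE4 peaks 19 or 30.2%. Over the peaks in the window of any gene, among which long genes hold many, the shares were 7.98% and 6.47%. No peak was shared by 2 members. Inside the gene lay 73 H1foo peaks at 35 members and 43 AE4 peaks at 19 members, where 56.1% and 42.7% of all genes had such a peak. An H1foo peak inside the gene and in no other gene's window was present at 24 of 57 members. All genes had such a peak in 50.8% of cases, and genes of like length and density in 41.0%. By this count members were close to like genes and below all genes. An AE4 peak inside the gene and in no other gene's window was present at 18 members, against 39.3% of all genes and 26.8% of like genes. The 2 lists overlapped in 34 of the 112 H1foo peaks (30.4%, against 25.6% of those at any gene) and 35 of the 63 AE4 peaks (55.6% against 56.8%). At 22 of the 26 members with both antibodies (84.6%) an H1foo peak overlapped an AE4 peak, against 73.6% of all genes with both, and at Ndufa9, Ndufaf1, Ndufb2 and Ndufc1 none did.

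The place of the peaks along the gene differed between the lists. With the start of transcription taken from the promoter entry, 89 H1foo and 55 AE4 peaks could be placed at the 47 members. By their centres, 11 H1foo peaks lay upstream, 11 between 250 bp before and 500 bp after the start, 31 in the gene body, 14 in the last 2 kb and 22 past the end. For AE4 these numbers were 2, 1, 27, 10 and 15. Of the 55 AE4 peaks, all but 3 thus had their centre in the gene body or beyond. The same places were not counted for the peaks of all genes. AE4 peaks were scarcer near the start there too, at 2.68% of all genes in the first 500 bp and 6.06% at 4500 to 5000 bp past the start.

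In bins of 500 bp the members' H1foo profile was highest just inside the gene. A peak touched the first 500 bp of 15 of 47 members (31.9%), against 15.3% of all genes, 18.3% of genes of like length and density and 17.5% of genes of like promoter CpG count. The bin was singled out after its value was seen, as the highest of the 20 around the start, and 1 gene makes up more than 2 points of a share of 47. The 500 bp before the start had 17% in members against 13.5% of all genes, and at 1000 to 3000 bp past the start members were at or below the level of all genes. Peaks in the first 500 bp were mostly weak: their scores ran from 51.13 to 167.25 with a median of 61.5, and 9 of 15 were below the list's median. They belonged to Ndufs7, Ndufa3, Ndufa11, Ndufa13, Ndufb1, Ndufb2, Ndufb10, Ndufc2, Ndufaf2, Ndufaf3, Ndufaf5, Ndufaf8, Uqcrc1, Uqcrh and Uqcr11.

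AE4 peaks were rare around the starts of the members. The first 500 bp had an AE4 peak in 1 of 47 members (2.13%, against 2.68% of all genes), Ndufc2, and the bins from 500 to 1500 bp upstream in none, where all genes had 2.03% and 2.73%. At 3500 to 4000 bp past the start the share was 14.9%, against 5.87% of all genes and 7.44% of like genes. Around the gene end it peaked at 2000 to 2500 bp before the end, with 19.1% against 7.06% and 7.22%. In the last 500 bp it was 2.13%, against 5.67% and 7.19%. These bins were singled out after their values were seen. In short genes, bins counted from the start and from the end can hold the same peaks. At these counts, between 0 and 9 genes a bin, single genes weigh heavily, and Ndufs7, Ndufa13 and Ndufb7, with 6, 4 and 5 AE4 peaks, enter several bins each.

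**Figure D3:**
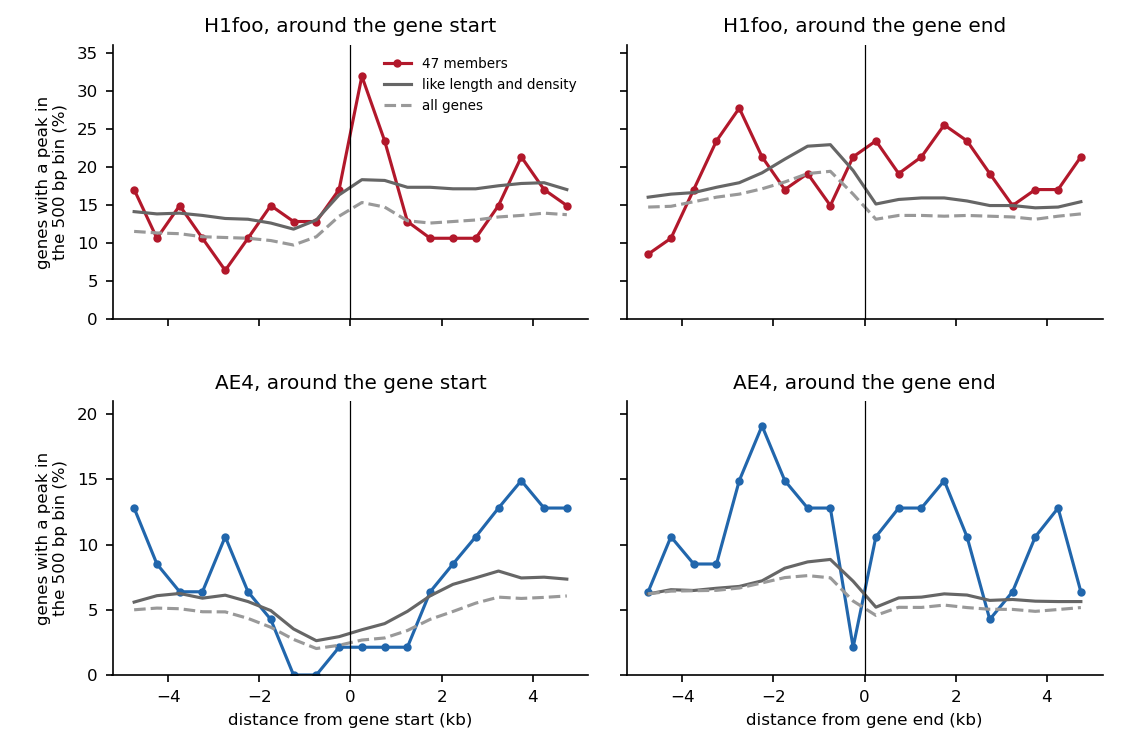
Share of genes with a peak in each bin of 500 bp (percent, y axis) against the distance from the gene start (left) and the gene end (right) in kb, for H1foo (top) and AE4 (bottom). Points are the 47 members with a promoter entry, the solid grey line other genes of like length and density, and the dashed line all genes; the H1foo line of the members reaches 31.9% in the first bin past the start, where AE4 stands at 2.13%.

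**Figure D4:**
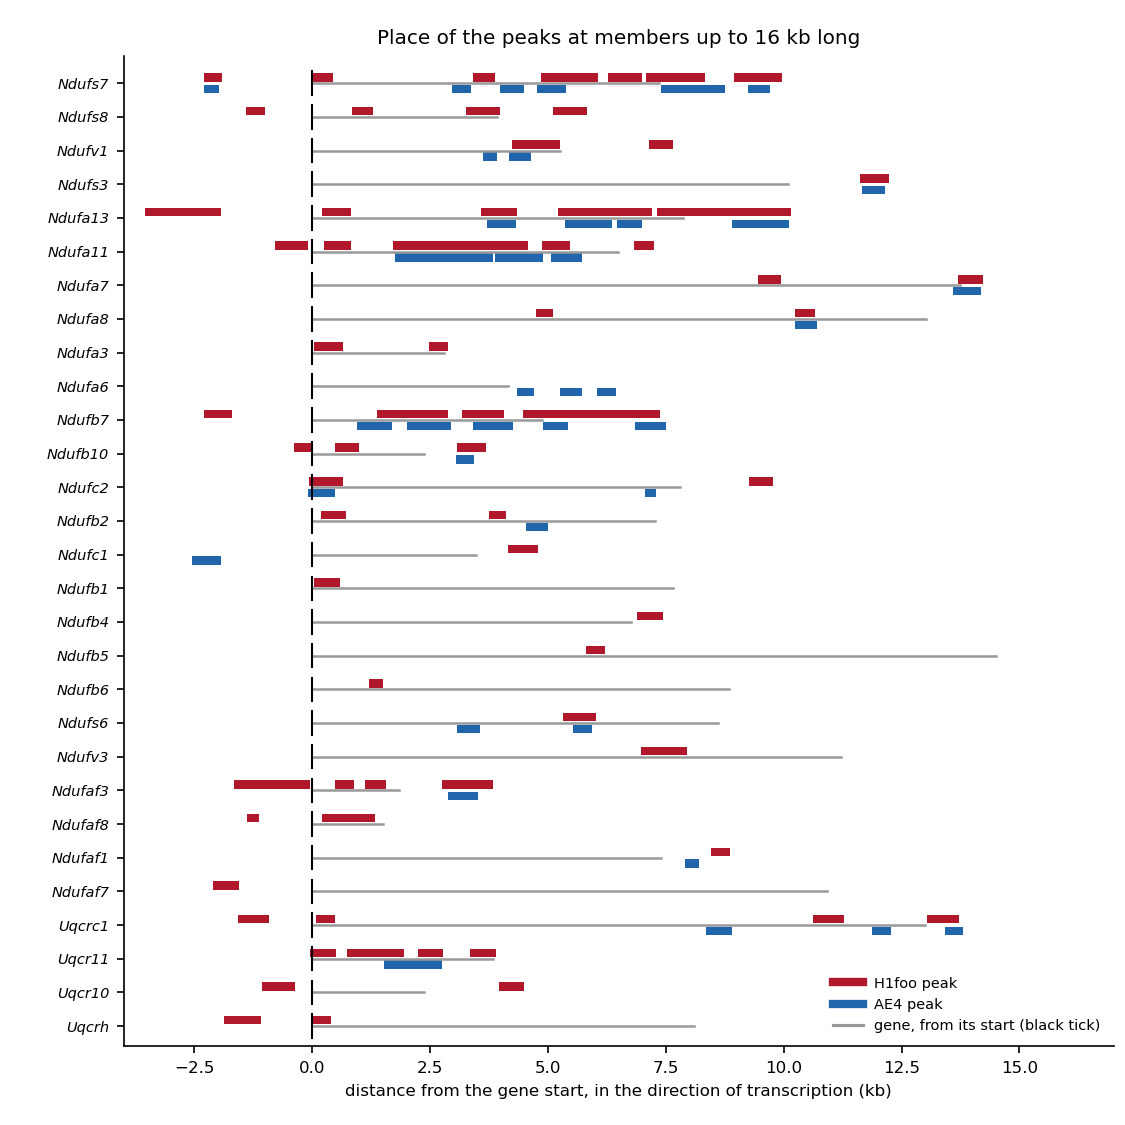
Place of H1foo peaks (red, above each line) and AE4 peaks (blue, below it) at the 29 members up to 16 kb long that have a promoter entry and at least 1 peak; the x axis is the distance from the gene start in kb, in the direction of transcription, and the grey line is the gene. Short H1foo bars sit at the start of Ndufs7, Ndufa3, Ndufb1, Uqcrc1, Uqcr11 and Uqcrh, and most AE4 bars lie farther along, apart from that at the start of Ndufc2 and those upstream of Ndufs7 and Ndufc1.

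The promoter window of 300 bp (250 bp before to 50 bp after the start) was overlapped by an H1foo peak in 10 of 47 members, or 21.3%, against 12.8% of all promoters and 14.7% of promoters in the same CpG classes. An AE4 peak overlapped it in 1, Ndufc2 (2.13%, against 2.12% of all promoters). The members had a median of 20 CpG in the window (quartiles 15 and 25), against 13 in all promoters (quartiles 4 and 24). H1foo peaks over all promoters were least frequent in the CpG-richest class, at 6.54% with 30 or more CpG, against 16.7% with 10 to 19 CpG. The members with and without an H1foo peak over the promoter both had a median of 20 CpG.

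The windows were searched for 3 motifs on both strands: GCGCA, any base and GCGC for NRF1, CCGGAAG for ETS factors and AAGATGGC for YY1. NRF1 letters stood in 10 of 47 members (21.3%, against 6.66% of all promoters), ETS letters in 8 (17% against 11.9%) and YY1 letters in 8 (17% against 3.21%). At least 1 of them stood in 24 members (51.1% against 19.6%). Such matches are sequence, not binding. The NRF1 and ETS letters contain CpG, and the motif shares were not set against promoters of like CpG count. Of these 24 members 5 had an H1foo peak over the promoter window, and of the 23 without a motif also 5. At the motifs themselves, 2 of 30 places lay under an H1foo peak, the ETS letters of Uqcrh and the YY1 letters of Ndufs7, and none under an AE4 peak; over all promoters it was 7.41% of 4478 places for H1foo and 0.29% for AE4.

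The 250 bases before the start are shown for 6 members, 5′ to 3′ on the strand of the gene, from RefSeq on GRCm38.p6. Capitals mark the motifs named above, read on either strand. The first 4 had an H1foo peak over the promoter window and the last 2 did not.
Ndufc2: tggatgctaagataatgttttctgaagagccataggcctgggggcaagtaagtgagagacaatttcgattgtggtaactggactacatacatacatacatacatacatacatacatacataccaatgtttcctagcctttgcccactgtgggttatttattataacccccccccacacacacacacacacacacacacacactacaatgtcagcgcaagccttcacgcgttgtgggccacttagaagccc
Uqcr11: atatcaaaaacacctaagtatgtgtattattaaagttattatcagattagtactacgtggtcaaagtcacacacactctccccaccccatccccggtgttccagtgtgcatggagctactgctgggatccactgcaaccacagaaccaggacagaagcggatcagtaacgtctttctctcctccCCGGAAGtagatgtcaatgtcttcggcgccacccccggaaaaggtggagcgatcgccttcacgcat
Uqcrh: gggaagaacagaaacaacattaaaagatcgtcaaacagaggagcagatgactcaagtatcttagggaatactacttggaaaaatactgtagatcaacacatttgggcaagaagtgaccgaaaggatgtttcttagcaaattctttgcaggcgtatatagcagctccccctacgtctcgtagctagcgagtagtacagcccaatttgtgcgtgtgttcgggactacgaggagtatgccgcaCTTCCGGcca
Ndufa11: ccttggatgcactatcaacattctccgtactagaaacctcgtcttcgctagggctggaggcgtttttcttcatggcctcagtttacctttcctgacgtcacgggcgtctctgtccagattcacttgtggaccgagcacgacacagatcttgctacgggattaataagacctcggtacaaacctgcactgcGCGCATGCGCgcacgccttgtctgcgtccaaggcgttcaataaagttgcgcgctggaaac
Ndufb4: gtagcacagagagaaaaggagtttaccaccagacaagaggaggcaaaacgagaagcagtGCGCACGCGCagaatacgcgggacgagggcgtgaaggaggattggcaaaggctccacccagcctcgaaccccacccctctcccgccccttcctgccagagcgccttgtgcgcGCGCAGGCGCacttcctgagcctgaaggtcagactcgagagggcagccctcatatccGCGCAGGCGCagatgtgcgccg
Ndufaf4: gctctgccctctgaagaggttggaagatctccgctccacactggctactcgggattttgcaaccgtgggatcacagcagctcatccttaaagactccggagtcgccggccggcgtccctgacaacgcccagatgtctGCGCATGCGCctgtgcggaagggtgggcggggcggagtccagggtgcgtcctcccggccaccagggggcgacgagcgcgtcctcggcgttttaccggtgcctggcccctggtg

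Ndufc2 (chr7:97399753-97400002, plus strand) had the CpG-poorest of these promoters, with 8 CpG in its window and runs of simple repeat, and was the single member with peaks of both antibodies over the start. Its H1foo peak ran from 67 bp before to 655 bp after the start and its AE4 peak from 98 bp before to 487 bp after. Uqcr11 (chr10:80406822-80407071, minus strand) and Uqcrh (chr4:116075071-116075320, minus strand) had H1foo peaks that began 40 and 27 bp before the start, with scores of 112.75 and 53.07. With the start counted as 0, the ETS letters of Uqcrh at -10 to -4 were inside its peak, and those of Uqcr11 at -66 to -60 were outside.

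At Ndufa11 (chr17:56717512-56717761, plus strand) the NRF1 letters lay at -60 to -51. The H1foo peaks on either side ended 82 bp before the start and began again 246 bp after it, so the motif and the start stood in the gap between 2 peaks. Ndufb4 (chr16:37654369-37654618, minus strand) had NRF1 letters at 3 places, the most of the members, and its single H1foo peak lay 119 bp past the other end of the gene. Ndufaf4 (chr4:24897833-24898082, plus strand) had NRF1 letters at -113 to -104 and no peak in its window. The promoter windows of these last 2 had 23 and 28 CpG.

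Other genes of the respiratory chain, taken from a list by name, had peaks in similar proportion. Complexes II, IV and V, cytochrome c, and subunits and assembly factors of complexes I and III under other names came to 64 genes. Of these, 45 (70.3%) had H1foo and 29 (45.3%) had AE4, against 50.5% and 35.1% of genes of like length and density. Promoter CpG count was not matched for these 64 genes, and with it the H1foo difference of the members was 4.11 points. For the single groups no share of like genes was computed, and of all genes 59.4% had H1foo and 46.1% had AE4. ATP synthase genes had H1foo at 16 of 18, led by Atp5d, Atp5a1 and Atp5o (304.01, 237.99 and 233.72), and AE4 at 8. Complex II genes had them at 6 and 4 of 8, with Sdhb highest (193.16). Complex III genes under other names had them at 7 and 5 of 7, led by the assembly factors Uqcc1 (248.96, with 13 peaks of each antibody), Lyrm7 (198.54) and Bcs1l (154.59).

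Cytochrome c oxidase genes had H1foo at 10 of 18 and AE4 at 8, and the highest H1foo scores were at Cox4i2 (355.6), Cox4i1 (321.69) and Cox7a1 (232.03). Complex I assembly factors under other names had H1foo at 5 of 10 and AE4 at 4, with Timmdc1 at 343.13, and the cytochrome c group had H1foo at 1 of 3, the testis form Cyct (54.99), and AE4 at 0. The differences between these groups were not tested.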

How the data were processed

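The submitters' processing notes name Bowtie 1.1.2 and mm10, and peaks were called with MACS, per the file headers. Its version, its control and how 2 libraries became 1 list: not given in the sources used here. Each peak has a score, deposited by the authors with no named scale.

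Starts were converted to count from 1, and peaks and genes on the 19 autosomes, X and Y were kept. Peaks were joined to RefSeq gene spans extended by 2 kb, and to RefSeq promoter entries for start sites, with pandas 2.3.3 and numpy 2.4.6 in Python 3.11.15. The entry farthest upstream was used. No entry was matched for 10 members, among them Ndufa2, Ndufa4l2, Ndufaf6, Ndufb4c, Ndufb9, Ndufs1, Uqcrb, Uqcrc2 and Uqcrq. The values of 1 member are not reported here, although the counts include it. The share in like genes is the mean, over members, of the share among other genes in the same of 10 length and 5 density classes, with at least 133 genes a class. CpG classes were under 10, 10 to 19, 20 to 29 and 30 or more. This calculation was tested on simulated outcomes with members drawn at random. The overlap search was compared with a direct count on the AE4 list at a sample of genes.

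Every member could be named. Full values were planned for members with AE4, the leaders of each role group, those richest in peaks and the longest without any. Highest scores of other members with H1foo were given as well. At most 3 other pathway genes per group were named by score. Members, lists and rules were chosen with earlier results of these data known.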

Additional observations from a re-analysis of the deposited data

How the results depend on the processing

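The 43 members with H1foo, 27 with AE4 and 26 with both were counted again under 11 other settings each, and the differences from like genes under 21 each. With peaks at or above the median score of their list, H1foo fell to 28 members and both to 17, and the H1foo difference to 6.96 points. With the H1foo list trimmed to the length of the AE4 list it lay at 27 members, as did AE4, where 43.8% of all genes had it, and the difference was 5.8 points. Against genes of like length and promoter CpG count it was 4.11 points. The cause of these shifts was not tested. The H1foo difference was 11 points with no flank and 8.19 with length, density and CpG classes together. All other settings kept counts within 1.5 times, and no setting turned the sign of a difference. Outside these settings, an H1foo peak inside the gene and in no other gene's window was counted at 24 of 57 members. That share was close to the 41.0% of like genes and below the 50.8% of all genes. The AE4 difference ranged from 0.746 points with density classes alone to 14.8 with 5 kb of flank, and was 1.27 against all other genes and 1.3 with no flank, so it is small under some settings. No paired analysis was possible because the lists carry no value per replicate, and for the same reason no library could be left out. Settings that left out the sex chromosomes, the short Ndufb4 copies, Ndufaf2 with Ndufs4, or receptor, keratin and histone families, and those limited to promoter entries, were chosen after seeing the data. Depth is unknown and limits every absence of a peak.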

Other observations

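Genes for regulators of the respiratory chain carried peaks as well. H1foo lay in the window of 8 of 10 and AE4 of 7, against 59.4% and 46.1% of all genes. Most of the 10 are longer than 20 kb, and other genes of that length had H1foo in 69.3% and AE4 in 59.4% of cases. No share of like genes was computed for the regulators. Pprc1, a coactivator of the PGC family, had 4 H1foo peaks with a highest score of 376.09. Gabpa, the DNA-binding subunit of an ETS factor, had 3 H1foo peaks of up to 150.25, a score also found at Atp5j, whose gene overlaps it. Nrf1, of 105.0 kb, had 13 H1foo peaks of up to 131.48 and 2 AE4 peaks. Ppargc1a, the longest of the 10 at 662 kb, had no peak of either antibody, and Gabpb1 had AE4 alone (96.05).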
